A study of Mus musculus with 4 samples.

Results

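The genes described here are the collagens and the enzymes that process collagen, as they were read in mouse brown adipocytes with and without forced expression of Blnc1, brown fat lncRNA 1, a long noncoding RNA. Members were chosen by gene symbol alone. They were the collagen chains, the collagen prolyl and lysyl hydroxylases and the lysyl oxidases. The prolyl 3-hydroxylase family, Crtap as the partner of P3h1, and the procollagen C-proteinase enhancers were also included. Of the 10926 genes that had a probe set with 1 gene symbol, 37 were members, 22 of them collagen chains (7 fibrillar, 6 of basement membranes and 9 others) and 15 processing enzymes and cofactors. Where a gene had several probe sets, the brightest on average over the 4 arrays stands for it. Col1a2, Col8a2, P4ha1 and other family members without such a probe set were not analysed here.

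Preadipocytes labelled wild type that carried either an empty vector or Blnc1 were differentiated for 6 days, and total RNA of 2 samples per group was hybridised to Affymetrix perfect-match arrays. Replicates are labelled biological, but whether a separate transduction stands behind each is not stated. The p-values thus cover only the spread between these arrays, which may be technical. Neither the promoter that drove Blnc1 nor the kind of vector is given in the sources used here.

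Collagens are secreted as procollagen trimers, built of chains whose repeating glycine triplets wind into a triple helix. Prolyl and lysyl residues are hydroxylated in the endoplasmic reticulum, the propeptides of fibril-forming types are trimmed outside the cell, and lysyl oxidases then cross-link the fibrils. Adipocytes in fat tissue are wrapped in a basement membrane and surrounded by type VI collagen, and the matrix is known to be remodelled when preadipocytes turn from fibroblast-like into fat-laden cells.

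On the log2 scale used throughout, array medians ran from 5.98 to 6.04. The probe set named C730029A08Rik, a symbol that the reference table lists together with Blnc1, read 8.08 and 8.14 in the vector arrays and 12.73 and 12.75 in the Blnc1 arrays, in the direction of the labels. Defining adipocyte genes (Adipoq, Fabp4, Lpl, Cd36, Pparg, Cebpa) had mean levels of 9.76 to 13.28 in all, and none of these 6 passed the test. Of 8 measured brown adipocyte markers 5 rose, where 0.86% of all genes were called higher. The other 3 also had a positive log2 fold change. Dio2, 1 of the 5, read below the 25th percentile of all probe sets. All 18 hybridization control probe sets were lower in the Blnc1 arrays, by a median of -0.27, and the 3'-to-5' signal difference of the control probe sets for Gapdh and Actb, which tracks RNA quality, was lower by values of -0.13 and -0.17 there. Their part in the results below was not tested.

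Most collagen genes stood lower in Blnc1 cells than in vector cells, and 3 chains passed the test. Col8a1, a short-chain network collagen, fell 1.62-fold, Col6a2, a chain of the beaded filaments of type VI collagen, fell 1.54-fold, and Col4a2, a chain of the basement membrane network, fell 1.47-fold (limma, adjusted p = 0.0391, 0.0406 and 0.0495). These were 3 of 37 members, where 0.366% of all genes were called lower. No member was called higher, where 0.86% of all genes were. With an unadjusted p under 0.05 (limma), 18 members stood lower and 3 higher, where 992 and 1274 of all 10926 genes did. A negative log2 fold change was found for 30 of the 37 members, with a median of -0.17, against 48.4% of all genes and a median of 0.0073. Both Blnc1 arrays lay below both vector arrays for 22 members and above them for 6, where the shares over all genes were 24.9% and 28.3%. In RNA from whole cultures, fewer cells of a collagen-making type and less collagen RNA per cell cannot be told apart.

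**Figure D1:**
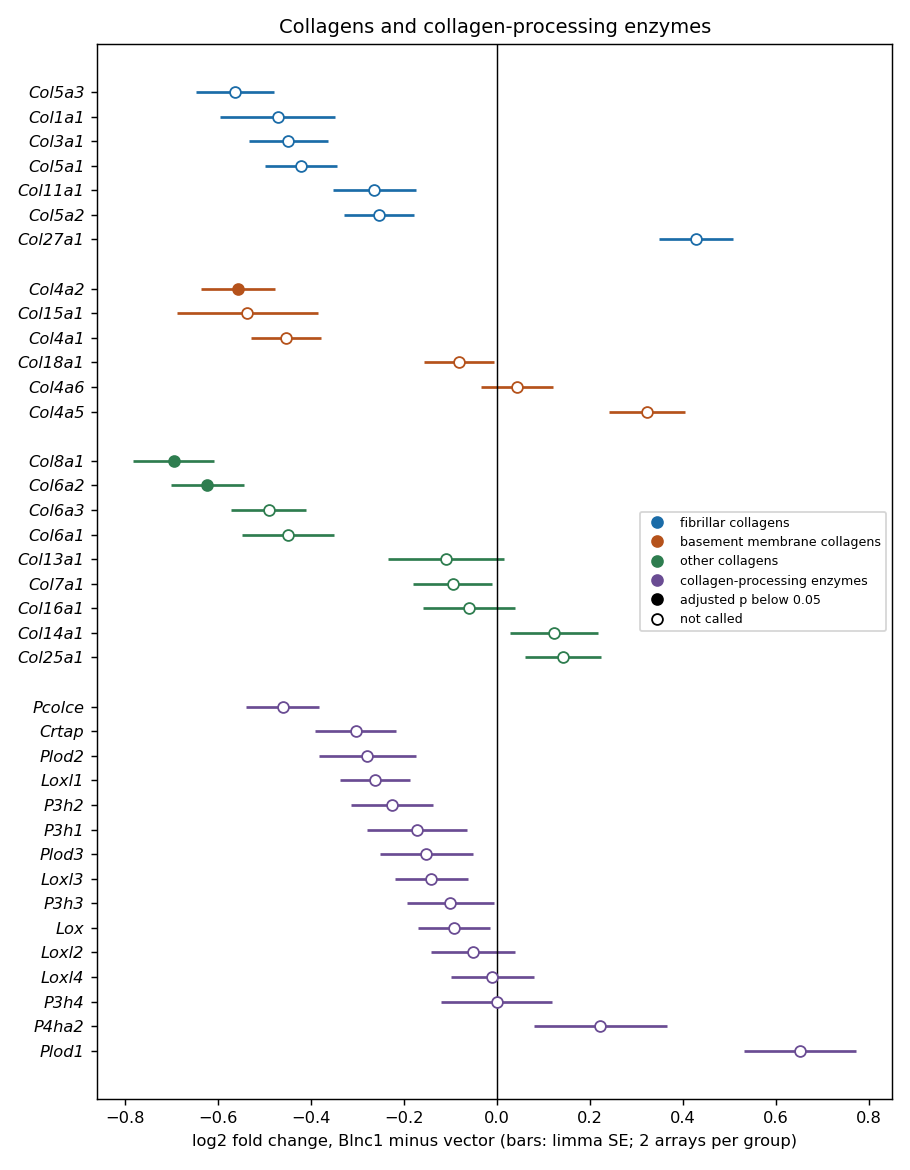
Log2 fold change (Blnc1 minus vector, x axis) of each of the 37 members, by class, with the limma standard error as bar and 2 arrays per group; filled points passed an adjusted p of 0.05. The filled points are Col8a1, Col6a2 and Col4a2, and 7 members lie to the right of 0, with Plod1 farthest at 0.65.

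The 3 calls did not hold when any 1 of the 4 arrays was left out. Adjusted p-values (limma) were then 0.0840 to 0.163 for Col8a1, 0.124 to 0.159 for Col6a2 and 0.127 to 0.175 for Col4a2, while the log2 fold changes stayed between -0.77 and -0.51. Few genes were called at all in these fits, 3 to 23 of 10926 against 134 with all arrays. Col4a2 also missed the threshold with a robust variance prior (limma adjusted p = 0.0526) and after repeated quantile normalization (limma adjusted p = 0.053). A variance prior that follows the level moved the count the other way: 15 members were then called lower and 3 higher, where 4.94% and 6.38% of all genes were.

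Markers of undifferentiated and fibroblast-like cells stood lower as well. All 7 measured of 11 listed preadipocyte and fibroblast markers (Dcn, Dlk1, Dpt, Lum, Pdgfra, Pdgfrb, Thy1) had negative log2 fold changes, with a median of -0.22. None passed (limma, smallest adjusted p = 0.0782). Of all 10926 genes 992 were negative with an unadjusted p under 0.05, and of these 7 markers 3 were. Their summed signal on the linear scale was 383 to 410 in the vector arrays and 307 to 335 in the Blnc1 arrays. Pdgfra, Lum and Pdgfrb read below the 25th percentile of all probe sets. Of the 2 measured smooth muscle and myofibroblast genes, Acta2 stood at -0.30 and Des at 0.37. Des also read below the 25th percentile, and Acta2 did not. The part of such cells in the collagen values was not tested.

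Fibrillar collagens form the cross-banded fibres of connective tissue. None of the 7 measured chains passed over all probe sets (limma, smallest adjusted p = 0.0526). With an unadjusted p under 0.05, 6 were negative and 1 positive, where 992 and 1274 of all 10926 genes were. Their median log2 fold change was -0.42. In each of the 7 the 2 groups of arrays did not overlap, where 53.2% of all genes did not.

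Col3a1, the chain of type III collagen, read 10.86 and 10.94 in the vector arrays and 10.40 and 10.51 in the Blnc1 arrays. Its log2 fold change was -0.45 ± 0.084 (SE, limma adjusted p = 0.0775). Col1a1, the major chain of type I collagen, read 6.95 and 7.25 against 6.56 and 6.70, a log2 fold change of -0.47 ± 0.12 (SE). The vector arrays differed from each other by 0.31 for Col1a1, more than the 0.25 that separated the nearest arrays of the groups, so this value is less sharply set than that of Col3a1.

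Type V collagen, which sits within type I fibrils and limits their width, was read through its 3 chains. Col5a3, the chain that occurs in only part of the tissues making type V collagen, read 7.85 and 7.93 in the vector arrays and 7.28 and 7.38 in the Blnc1 arrays. The difference of -0.56 ± 0.084 (SE) was the largest of the fibrillar class and missed the threshold narrowly (limma adjusted p = 0.0526). With each array centred on its median it passed (limma adjusted p = 0.0495, range over all alternatives 0.0017 to 0.169). Col5a1 read 9.38 and 9.43 against 8.96 and 9.01, or -0.42 ± 0.077 on the log2 scale (SE, limma adjusted p = 0.0756). Col5a2, the partner present in a single copy in the common trimer, read 9.84 and 9.87 against 9.61 and 9.59, at -0.25 ± 0.076 (SE). The 3 chains thus shared a sign, with sizes from -0.56 to -0.25. Col11a1, a minor fibrillar chain best known from cartilage that can also assemble with type V chains, was dim (below the 25th percentile) and stood at -0.26 ± 0.089 (SE), from 4.55 and 4.53 to 4.36 and 4.19.

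Col27a1 was the exception in its class. This chain of a fibrillar collagen best known from cartilage read 6.74 and 6.83 in the vector arrays and 7.19 and 7.23 in the Blnc1 arrays. The difference of 0.43 ± 0.079 (SE) on the log2 scale did not pass (limma adjusted p = 0.0767), but its further probe set stood at 0.49 ± 0.076 (SE, limma adjusted p = 0.0576). For either probe set the Blnc1 arrays both lay above the vector arrays. The mean of the pair passed (limma adjusted p = 0.0269), in a fit that called 4.27% of all genes against 1.23% at first. Pcolce, with 1 probe set, passed in that fit too (limma adjusted p = 0.0277). Over the alternatives that kept all 4 arrays, Col27a1 had adjusted p-values of 0.013 to 0.115 (limma).

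Of the 6 measured basement membrane collagens, 1 fell and none rose, where 0.366% of all genes were called lower and 0.86% higher. The median log2 fold change was -0.27, against 0.0073 for all genes. Col4a1 and Col4a2, which build the common type IV network as a trimer of 2 chains of the first and 1 of the second, stood lower together. Col4a2 read 9.84 and 9.87 in the vector arrays and 9.34 and 9.25 in the Blnc1 arrays, so that 68.0% of the vector level was left (log2 fold change -0.56 ± 0.080 SE). Col4a1 read 10.79 and 10.79 against 10.36 and 10.33, or 73.1% of the vector level (-0.45 ± 0.075 SE), and did not pass (limma adjusted p = 0.0631). For both genes the gap between the nearest arrays of the groups, 0.49 and 0.44, was larger than any difference between replicates.

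These chains lie head to head on mouse chromosome 8 and are transcribed in opposite directions from a common start region. In RefSeq (GRCm38.p6) the starts are 21 bases apart, at position 11312805 for Col4a2 on the plus strand and at 11312826 for Col4a1 on the minus strand, so that their first bases overlap. The stretch below, chr8:11312801-11312830 on the plus strand, holds both starts, in capitals, and is shown because both genes that read from it stood lower.
Col4a2 and Col4a1 starts: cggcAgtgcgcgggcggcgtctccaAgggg
Col4a5 and Col4a6, chains of the more specialised type IV networks, also lie head to head on the X chromosome. Their starts are 1343 bases apart, and their first bases do not overlap.

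Col4a5 went in the other direction from Col4a1 and Col4a2. It read 7.99 and 8.10 in the vector arrays and 8.37 and 8.36 in the Blnc1 arrays, a log2 fold change of 0.32 ± 0.082 (SE) that did not pass (limma adjusted p = 0.126). Its dimmer probe set stood at 0.0043 ± 0.10 (SE). Col4a6 was dim, at 4.29 in vector and 4.34 in Blnc1 cells on average, and stood at 0.044 ± 0.077 (SE). Whether Col4a5 differed from Col4a1 and Col4a2 was not tested.

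Col15a1 and Col18a1, the multiplexins that tie basement membranes to the tissue around them, did not pass. Col15a1 read 7.08 and 7.22 in the vector arrays and 6.40 and 6.83 in the Blnc1 arrays. Its log2 fold change of -0.54 ± 0.15 (SE) had the widest error among the members, and the Blnc1 arrays differed by 0.43. Col18a1 stood at -0.082 ± 0.075 (SE).

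Of the 9 other collagens, 2 fell and none rose, where 0.366% of all genes were called lower and 0.86% higher. Their median log2 fold change was -0.11. That median was -0.24 without vector replicate 2, -0.21 without Blnc1 replicate 1 and -0.49 with only probe sets above the 25th percentile, since 4 chains lay between -0.69 and -0.45 and 5 near 0. All 3 chains of type VI collagen, which builds the beaded filaments around adipocytes, belonged to the former. Col6a2 read 9.97 and 9.98 in the vector arrays and 9.31 and 9.40 in the Blnc1 arrays, leaving 65.0% of the vector level (log2 fold change -0.62 ± 0.079 SE). Col6a3, whose C-terminal fragment is known as endotrophin, read 10.40 and 10.48 against 9.91 and 9.99. Its log2 fold change was -0.49 ± 0.081 (SE, limma adjusted p = 0.0626). Col6a1 read 9.59 and 9.77 against 9.17 and 9.30, at -0.45 ± 0.099 (SE), and did not pass. The chains form a trimer of 1 copy each, and their values lay within -0.62 to -0.45.

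Col8a1, a short-chain collagen of vessel walls and of the eye, showed the largest difference of all 37 members. It read 6.18 and 6.03 in the vector arrays and 5.43 and 5.40 in the Blnc1 arrays, leaving 61.8% of the vector level (log2 fold change -0.69 ± 0.087 SE). Its dimmer probe set stood at -0.38 ± 0.095 (SE) and did not pass (limma adjusted p = 0.122). The brighter one read at the 45.7th percentile of all probe sets, so this fall was measured at a modest signal.

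The 5 remaining chains were Col7a1 of the anchoring fibrils, Col14a1 and Col16a1, which attach to fibrils, and the transmembrane collagens Col13a1 and Col25a1. Their log2 fold changes ran from -0.11 (Col13a1) to 0.14 (Col25a1), with Col7a1 at -0.095, Col16a1 at -0.060 and Col14a1 at 0.12. None had an unadjusted p under 0.05. Of these chains 4 read below the 25th percentile of all probe sets.

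**Figure D2:**
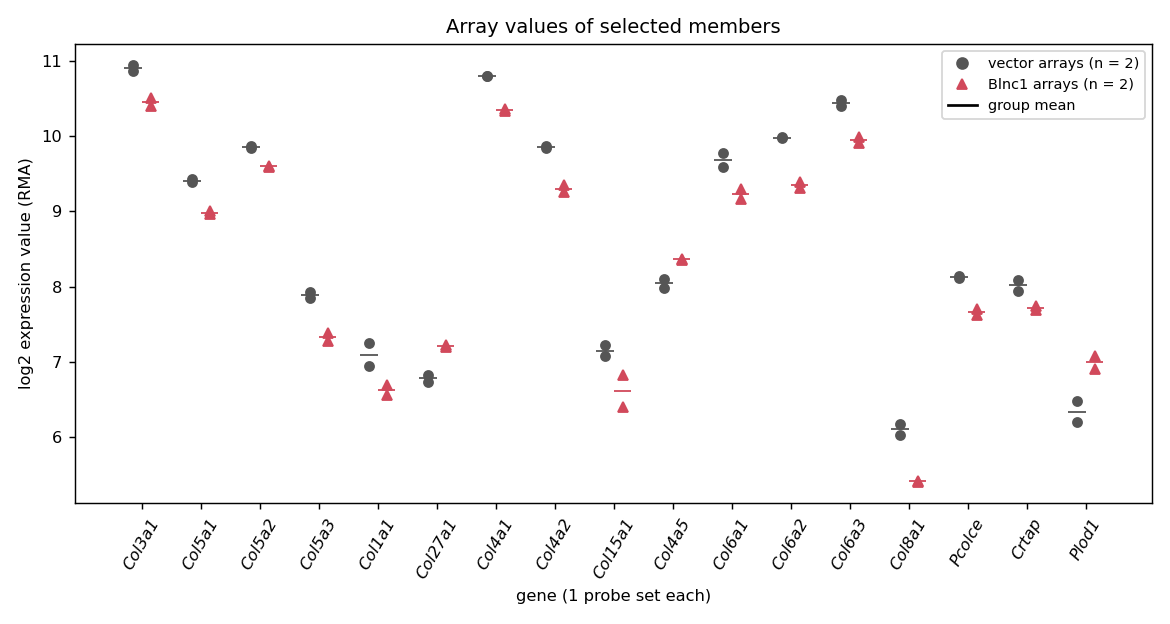
Log2 expression values (y axis) of 17 members in each array, grey circles for the 2 vector and red triangles for the 2 Blnc1 arrays, with short lines at the group means. The Blnc1 arrays lie below the vector arrays for 14 of these genes and above them for Col27a1, Col4a5 and Plod1. None of the 17 is among the 9 members whose groups overlap, so the separation seen here follows from the choice of genes. Over all genes both Blnc1 arrays lay below for 24.9% and above for 28.3%. Levels are not to be compared between genes, since probe sets differ in brightness.

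Of the 15 collagen-processing genes none passed over all probe sets (limma, smallest adjusted p = 0.0658). With an unadjusted p under 0.05, 5 were negative and 1 positive, where 992 and 1274 of all 10926 genes were. The median log2 fold change was -0.14, and 13 were negative. The groups of arrays did not overlap for 8 of the 15, a share close to the 53.2% of all genes.

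Enzymes that act on the nascent chain came out on both sides. Plod1, a lysyl hydroxylase of the triple helix, read 6.21 and 6.48 in the vector arrays and 6.91 and 7.08 in the Blnc1 arrays. Its log2 fold change of 0.65 ± 0.12 (SE) was the highest of all members and did not pass (limma adjusted p = 0.0767). The dim further probe set of Plod1 stood at 0.042 ± 0.092 (SE). Plod2, which hydroxylates the telopeptides that later form stable cross-links, stood at -0.28 ± 0.10 (SE), and Plod3, which also attaches sugars, at -0.15 ± 0.099. The lysyl hydroxylases therefore did not share a sign. P4ha2, a catalytic subunit of prolyl 4-hydroxylase, the enzyme that gives the triple helix its thermal stability, stood at 0.22 ± 0.14, with 7.05 and 7.43 in the vector arrays overlapping 7.37 and 7.56 in the Blnc1 arrays.

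The prolyl 3-hydroxylase family modifies few proline residues, and its member P3h1 works in a complex with Crtap. Crtap read 7.95 and 8.09 in the vector arrays and 7.69 and 7.74 in the Blnc1 arrays, or -0.30 ± 0.086 on the log2 scale (SE, limma adjusted p = 0.151). P3h1, its catalytic partner, stood at -0.17 ± 0.11 and overlapped between the groups. P3h2 stood at -0.23 on a dim probe set, P3h3 at -0.10 and P3h4, a family member without known hydroxylase activity of its own, at -0.00032.

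Outside the cell, Pcolce enhances the removal of the C-propeptide from fibrillar procollagens. It had the smallest p-value among the processing genes. Pcolce read 8.11 and 8.15 in the vector arrays and 7.71 and 7.63 in the Blnc1 arrays, so that 72.7% of the vector level was left. The log2 fold change was -0.46 ± 0.079 (SE, limma adjusted p = 0.0658).

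The lysyl oxidases, which start the cross-linking of collagen and elastin, had log2 fold changes from -0.26 to -0.0095. Lox read 9.58 and 9.62 against 9.49 and 9.53, a log2 fold change of -0.093 ± 0.077 (SE), and its further probe set stood at -0.19 ± 0.095. Loxl1, best known from elastic fibres, read 8.78 and 8.78 against 8.53 and 8.51, at -0.26 ± 0.075 (SE, limma adjusted p = 0.154). Loxl3 stood at -0.14, Loxl2 at -0.051 and Loxl4 at -0.0095, and the last 2 read below the 25th percentile.

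Promoter sequences from RefSeq (GRCm38.p6) were matched to 27 of the 37 members, as 30 windows of 300 bases (250 before to 50 after the start), some of which overlap. Of these, the 250 bases before the start are printed for the pair of members with the largest falls and for those with the highest values, Plod1 and Col27a1, so that they can be set side by side. Capitals mark the GC box GGGCGG, the CCAAT box CCAAT, the SMAD core CAGAC and the TATA box TATAAA on either strand. The E-box CANNTG was searched on both strands too and is not marked. Matches of different marked motifs did not overlap in these 4 stretches.
Col8a1, chr16:57754738-57754987, minus strand: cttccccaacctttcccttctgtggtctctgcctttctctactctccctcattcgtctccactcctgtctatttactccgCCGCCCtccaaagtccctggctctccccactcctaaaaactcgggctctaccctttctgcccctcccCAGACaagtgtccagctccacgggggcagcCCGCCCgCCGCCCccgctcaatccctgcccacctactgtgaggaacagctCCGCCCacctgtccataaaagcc
Col6a2, chr10:76623631-76623880, minus strand: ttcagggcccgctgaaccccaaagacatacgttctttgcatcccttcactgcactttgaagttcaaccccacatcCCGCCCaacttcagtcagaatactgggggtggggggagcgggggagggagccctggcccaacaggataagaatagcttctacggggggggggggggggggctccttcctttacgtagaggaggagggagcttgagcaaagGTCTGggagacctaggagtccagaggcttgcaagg
Col27a1, chr4:63215162-63215411, plus strand: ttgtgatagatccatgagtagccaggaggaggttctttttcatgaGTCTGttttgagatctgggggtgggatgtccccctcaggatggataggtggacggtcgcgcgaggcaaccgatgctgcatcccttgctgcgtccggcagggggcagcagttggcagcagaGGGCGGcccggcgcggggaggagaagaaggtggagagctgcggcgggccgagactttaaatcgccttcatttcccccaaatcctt
Plod1, chr4:147936777-147937026, minus strand: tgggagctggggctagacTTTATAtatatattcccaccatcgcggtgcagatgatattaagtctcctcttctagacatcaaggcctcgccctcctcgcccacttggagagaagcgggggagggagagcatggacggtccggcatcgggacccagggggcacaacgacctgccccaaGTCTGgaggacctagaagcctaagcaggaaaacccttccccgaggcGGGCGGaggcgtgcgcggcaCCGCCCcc
The stretch of Col8a1 holds 4 GC boxes, that of Plod1 2 and those of Col6a2 and Col27a1 1 each, and every one of the 4 holds 1 SMAD core. Col6a2 has 2 listed starts, of which the more upstream was used; the window of the other holds GGGCGG and no CAGAC. Of the 4 stretches only that of Plod1 holds TATAAA, as 1 match on the opposite strand that begins 232 bases before the start. Over the windows of collagen chains, 15 of 21 held GGGCGG (71.4%), and so did 7 of 9 windows of processing genes (77.8%), where 35.7% of all 32851 windows did. CCAAT was in 42.9% of the chain windows, 33.3% of the processing windows and 37.4% of all, and CAGAC in 57.1%, 33.3% and 49.6%. TATAAA was in 9.52%, 22.2% and 13.6%, and CANNTG in 42.9%, 66.7% and 72.3%. A match describes letters and is no evidence that a factor binds. Members without a match occurred on both sides: CAGAC was missing from the windows of Col4a5, which stood higher, and of Col6a1, which stood lower.

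Among neighbouring protein-coding genes, 4 pairs were made up of members on both sides: Col4a1 with Col4a2, Col6a1 with Col6a2, Col3a1 with Col5a2, and Col4a5 with Col4a6. The members of each pair had log2 fold changes of the same sign, negative in the first 3 and positive in the last. Negative values were found for 30 of all 37 members, and the dim Col4a6 stood at only 0.044 ± 0.077 (SE).

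Further probe sets were available for 15 members, 16 in all. The log2 fold change had the sign of the probe set used in 15 of 16, and Loxl1 was the exception, with a dim further probe set at 0.096 ± 0.11 (SE). Of the 16, 1 passed: the other probe set of Col6a2, a type prone to cross-hybridisation, at -0.57 ± 0.079 (SE, limma adjusted p = 0.0479), where 0.305% of all probe sets were called lower. The second probe sets of Col4a1 and Col3a1 stood at -0.54 and -0.49, and that of Col5a2 at -0.36. Col5a1 had 2 more, at -0.34 and -0.19, Col11a1 1 at -0.33, Plod2 1 at -0.12, P3h1 1 at -0.16 and Col18a1 1 at -0.027. The positive values of Plod1 and Col4a5 stood beside dimmer probe sets that lay near 0.

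**Figure D3:**
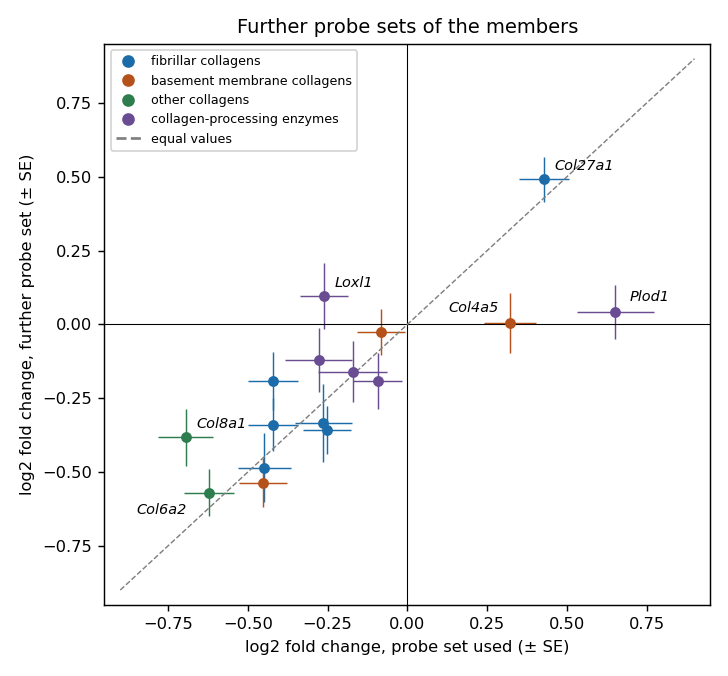
Log2 fold change of each of the 16 further probe sets (y axis) against that of the probe set used for the same gene (x axis), with limma standard errors and the line of equal values. Most points lie near the line in the lower left, Col27a1 lies near it in the upper right, and Plod1 and Col4a5 lie near 0 on the y axis.

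Negative values were not limited to dim probe sets. Of the 22 members above the median level of all probe sets 18 were negative, with a median log2 fold change of -0.36, against 48.4% and 0.0071 for all genes above that level. Among collagen chains above it, 11 of 13 were negative, with a median of -0.45. The median over the 37 members of the signed difference between replicates (replicate 2 minus replicate 1) was 0.045 in vector and 0.00011 in Blnc1 cells. Both were smaller in size than the median of -0.17 between the groups. Differences of opposite sign cancel in such a median. Single members differed by up to 0.37 between the vector arrays (P4ha2) and 0.43 between the Blnc1 arrays (Col15a1).

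**Figure D4:**
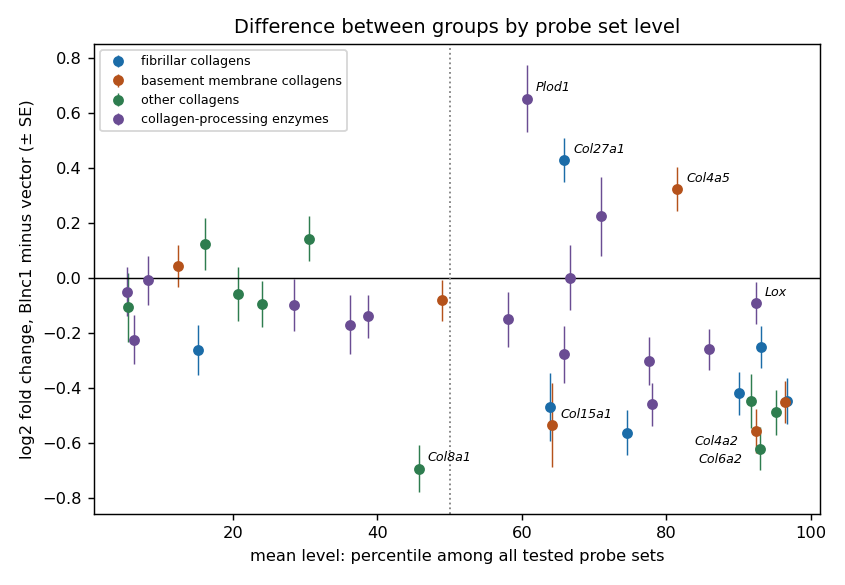
Log2 fold change (Blnc1 minus vector, y axis, with limma standard error) of the 37 members against the percentile of their mean level among all tested probe sets (x axis); the dotted line marks the median. Chains of types III, IV, V and VI crowd at the right below 0, except Col4a5, which lies above it, and the dim Col4a6 at the left, and the members below the 25th percentile lie between -0.26 and 0.12.

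The wider collagen pathway was examined through a list of 47 further genes, of which 30 were measured. Only Timp2, an inhibitor of matrix metalloproteinases, passed, where 0.366% of all genes were called lower. It went from 7.82 ± 0.044 to 7.20 ± 0.094 (SD, n = 2 each), or -0.62 ± 0.086 on the log2 scale (SE, limma adjusted p = 0.0479). Averaged over its probe sets, Timp2 stood at -0.41 ± 0.083 (SE, limma adjusted p = 0.0480). With a robust variance prior it missed the threshold (limma adjusted p = 0.0517). Without any 1 array the call was lost (limma adjusted p = 0.115 to 0.172), with 3 to 23 genes called in all, while the log2 fold change stayed between -0.68 and -0.55. Negative values were found for 26 of the 30 genes, with a median of -0.15, against 48.4% and a median of 0.0073 for all genes. The list was chosen with earlier results of these data known.

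Among 15 chaperones, modifying enzymes and proteinases none passed, 3 with an unadjusted p under 0.05 were negative and 1 was positive. At that cut 992 of all 10926 genes were negative and 1274 positive. Serpinh1, the collagen-specific chaperone Hsp47, stood at -0.36 ± 0.11, P4hb, the partner subunit of prolyl 4-hydroxylase, at -0.29 ± 0.076, and the cyclophilin Ppib, which works with P3h1 and Crtap, at 0.012 ± 0.077 (SE). Bmp1, the C-proteinase that Pcolce assists, stood at -0.14 ± 0.10, and Tmem38b, an endoplasmic reticulum cation channel, at 0.34 ± 0.082 (SE). Collagen-degrading and inhibitory genes had the lowest median of the list, -0.45 over 8 genes. Next to Timp2, Pepd, which splits proline-containing dipeptides, stood at -0.57 ± 0.11 and the membrane metalloproteinase Mmp14 at -0.46 ± 0.089, while the gelatinase Mmp2 stood at -0.44 ± 0.092 (SE). Mmp9, another gelatinase, stood at 0.35 ± 0.095 on a dim probe set. Of 7 receptors none passed, 3 with an unadjusted p under 0.05 were negative and 1 was positive. Ddr2, a receptor tyrosine kinase for fibrillar collagen, stood at -0.36 ± 0.075 (limma adjusted p = 0.0913), and Mrc2, an endocytic collagen receptor, at -0.36 ± 0.077. Itga1, a subunit of a collagen-binding integrin, stood at 0.33 ± 0.076 (SE, limma adjusted p = 0.110).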

How the data were processed

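Biotin-labelled RNA (250 ng) of 2 vector and 2 Blnc1 samples was hybridised, 1 array each. The authors deposited log2 expression values; their tools were affy, RMA and limma, per the submitters' processing notes, without versions. That the scale is log2 was read from the range, 2.70 to 13.3, and RMA compresses changes of dim probe sets. GEO's platform annotation gave 16692 of 23599 probe sets 1 symbol, 372 several and 6535 none; 35 control probe sets were left out. Groups follow the sample titles.

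Groups were compared with limma 3.58.1 (R 4.3.3; two-sided tests from lmFit with eBayes, without covariates or filters), adjusting by Benjamini-Hochberg over all 23599 probe sets, with 0.05 as threshold; the prior had 3.95 degrees of freedom. The number of arrays limits the precision: an exact permutation test of 2 against 2 cannot go below a two-sided 0.333, so none is given. The code was tested on simulated data, where 76 of 400 changes of 1.5-fold were called. A gene that did not pass can therefore still differ. Medians and counts of lists carry no test. Members, lists and alternatives were chosen with earlier results of these data known. Log2 fold changes with SE are given for members past the threshold, the 3 smallest p-values per class, chains sharing a trimer with these and the 4 smallest p-values among other pathway genes. Array values and adjusted p-values are printed for only part of them. Further values only describe. Alternatives covered variance priors, normalization, filters, probe set choice, thresholds, a replicate block and each array left out.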

Additional observations from a re-analysis of the deposited data

How the results depend on the processing

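The 20 genes picked by the threshold, the smallest p-values or a shared trimer kept their direction in all alternatives that measured them. The level filters dropped Col11a1 (both) and Col8a1 (the median). The number of members called, 3 at first, was 9 when probe sets of a gene were averaged, 7 and 12 with only probe sets above the 25th percentile or the median, 18 with a variance prior following the level, 11 at an adjusted p of 0.1 and 0 at 0.01 (limma, 21 with an unadjusted p under 0.05). The share of all genes called was 1.23% at first and 4.27%, 2.24%, 9.39%, 11.3%, 4.99% and 0.0275% at these settings in turn. The members called were 0 without each array in turn (limma, 16 to 20 with an unadjusted p under 0.05; 3 to 23 of all genes called). With the replicate number as a block 0 were called (limma, 19 with an unadjusted p under 0.05; 19 of all genes called); the numbers do not pair the samples in the labels, and deviations of same-numbered arrays correlated at 0.089 over all probe sets. Other pathway genes called, 1 at first, numbered 5, 9, 10 and 6 with averaged probe sets, above the median, with the level-dependent prior and at 0.1, and 0 with the block, the robust prior or at 0.01 (15 each with an unadjusted p under 0.05), and 0 without each array in turn (11 to 15).

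The fibrillar median was -0.32 with averaged probe sets and -0.45 to -0.32 without 1 array. The basement membrane median was -0.45 and -0.49 above the 25th percentile and the median, where fewer chains remain, and -0.27 to -0.21 without 1 array. For the other collagens it was -0.49 and -0.49, and -0.24 to -0.10, and for the enzymes -0.14 to -0.098 without 1 array. Why the variance priors differ was not tested. The 2 arrays per group limit the precision.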
